A study of Caenorhabditis elegans with 2 samples.

Results

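Autosomal intronic regions are described here from UNC-30 ChIP-seq, the sequencing of DNA that co-precipitates with a chromatin protein, in Caenorhabditis elegans. They are 793 of the 3000 highest regions in the authors' pooled candidate list, or 26.4% of them, and 31.7% of the 2500 of those that lie on autosomes. They were chosen by the signal value of that list, the authors' own measure of peak height, whose scale the sources used here do not give. The summit of each region lies inside a protein-coding gene, in no exon, and not 1 to 500 bp upstream of a protein-coding 5′ end. The pooled list holds 30000 regions of 356 bp, true peaks together with background.

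The animals were whole first-stage (L1) larvae, of pooled sexes, of the strain OP395, unc-119(tm4063) III; wgIs395. It is a stable transgenic line, and its UNC-30 carries GFP-FLAG at the C-terminal end. The labels name the immunoprecipitated factor but not the promoter or copy number of the transgene. There were 2 libraries in 1 group, biological replicates 1 and 2, each with a candidate list of its own, and no untreated group or control list was analysed here. Both replicates carry the unc-119 mutation and the transgene. All tests compare sets of regions taken from these 2 libraries, so their p-values hold no spread over animals, and regions in the same gene are not independent. The lists give no read counts, so the depth of the libraries is unknown.

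UNC-30 is a Pitx-type homeodomain protein, best known for giving the D-type motor neurons, which release GABA, their identity. Homeodomains of the bicoid and Pitx type prefer the core TAATCC, whereas many other homeodomains prefer TAATTA. Introns of C. elegans are mostly short, and the long ones, often the first of a gene, are known to hold enhancers. In whole larvae the D-type neurons are a small part of the cells.

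The highest and the motif-bearing regions are shown first by their sequence (ce11, NCBI RefSeq WBcel235). The first pair are the 100 bp to each side of the summits of the highest intronic regions, in W06H8.6 (chrV:6224523-6224723) and Y111B2A.12 (chrIII:12612519-12612719), on the plus strand. Capitals mark GACGCAG, or CTGCGTC on the other strand, a 7-mer singled out after the windows were read.
W06H8.6: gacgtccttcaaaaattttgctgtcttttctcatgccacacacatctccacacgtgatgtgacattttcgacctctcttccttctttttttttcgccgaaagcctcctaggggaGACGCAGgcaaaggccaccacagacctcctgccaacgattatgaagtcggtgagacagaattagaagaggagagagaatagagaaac
Y111B2A.12: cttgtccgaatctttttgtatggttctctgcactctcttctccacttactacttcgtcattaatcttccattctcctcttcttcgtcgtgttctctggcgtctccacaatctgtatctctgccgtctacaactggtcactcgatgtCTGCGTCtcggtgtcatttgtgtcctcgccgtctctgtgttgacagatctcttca

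The second set holds the match to TAATCC nearest the summit, in capitals, with 18 bases on each side. They are among the 10 highest regions that hold the core within 100 bp of the summit and have a summit within 100 bp in both replicates' lists. Those in nlp-15 and tent-5 are left out. The spans are chrIV:7899122-7899163 for atic-1 (minus strand), chrII:3270708-3270749 for F02E11.7 (plus), chrIV:10527837-10527878 for cal-4 (minus) and chrIV:5519197-5519238 for unc-5 (plus). The others are chrIV:10342735-10342776 for unc-43 (minus), chrIII:10523220-10523261 for unc-49 (minus), chrIV:5595806-5595847 for fkh-7 (minus) and chrV:9503061-9503102 for swt-5 (minus).
atic-1: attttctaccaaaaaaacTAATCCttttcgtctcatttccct
F02E11.7: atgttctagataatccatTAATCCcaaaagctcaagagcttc
cal-4: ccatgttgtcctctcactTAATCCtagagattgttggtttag
unc-5: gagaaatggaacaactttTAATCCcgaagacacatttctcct
unc-43: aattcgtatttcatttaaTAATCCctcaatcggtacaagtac
unc-49: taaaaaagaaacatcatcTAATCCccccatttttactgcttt
fkh-7: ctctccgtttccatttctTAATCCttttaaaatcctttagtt
swt-5: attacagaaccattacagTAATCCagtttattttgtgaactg

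Most of the intronic regions had signal values near the limit that chose them. The values ran from 20.9 to 98.2 with a median of 23.1, and the middle 50% of them from 21.9 to 25.4. Above a signal of 30 there were 49 regions (6.18%), above 40 there were 10, and above 50 there were 3. The last region inside the rank limit, in irld-30 (rank 2995), had a signal of 20.91, and the first one outside, in dmsr-5 (rank 3012), had 20.88. The authors' q-value, from the deposited −log10 q, had a median of 0.951 over the intronic regions, and 3 of them had a q under 0.05. These are descriptions, since signal chose the regions.

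Of the 125 peaks that the authors kept by the irreproducible discovery rate (IDR), a measure of agreement between replicates, 11 (8.8%) were among these regions. They were 1.39% of the 793 regions, which themselves make up 26.4% of the 3000 highest. The lowest signal of any of the 125 was 39.2. The highest of the 11, in intron 5 of the 5 introns of W06H8.6, had a pooled signal of 98.2, with 44.4 in replicate 1's list and 48.4 in replicate 2's. The region in intron 4 of Y111B2A.12 had a pooled signal of 93.3, with 63.6 in replicate 1 and 28.8 in replicate 2. Both were thus far up either list. The third, in the first intron of ndx-8, which encodes a Nudix hydrolase, also lies inside soem-1, and its signals were 68.1 pooled, 50.9 in replicate 1 and 28.4 in replicate 2. These 3 were the regions above a signal of 50.

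The other 8 thresholded regions had lower pooled signals. The region in dhc-4, which encodes a dynein heavy chain, had signals of 45.5 pooled, 30.1 in replicate 1 and 18.6 in replicate 2, and an snRNA gene lies within 100 bp of its summit. That in atic-1, a purine synthesis gene, had 44.2 pooled, 36.2 in replicate 1 and 8.95 in replicate 2, where it ranked 13716. That in pxn-1, the gene of the matrix protein peroxidasin, had 42.97 pooled, 23.3 and 20.7, with a snoRNA gene at its summit window. The gap between replicates was thus small at pxn-1 and wide at atic-1. F02E11.7 had 42.5 pooled, 29.95 in replicate 1 and 16.7 in replicate 2. zfp-1, which encodes a PHD-finger chromatin protein related to AF10, had 42.04 pooled, 27.6 in replicate 1 and 8.01 in replicate 2. The remaining 3 lacked a match in at least one list. nova-1, of an RNA-binding protein family that acts in splicing, had 42.7 pooled and 22.1 in replicate 2 alone. sue-1 had 40.3 pooled and 33.9 in replicate 1 alone. nhr-19, a nuclear hormone receptor gene, had 39.7 pooled and no summit within 100 bp in either list.

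Support from the replicates was partial among the intronic regions as a whole. A summit of both replicates' lists lay within 100 bp of 422 regions, or 53.2% (95% Wilson interval 49.7 to 56.7, counting error only). Replicate 1 alone matched 168 (21.2%), replicate 2 alone 177 (22.3%), and neither list matched 26 (3.28%). Since the pooled list was made from both replicates, this match is not independent of the choice of regions. Of all intronic bases that meet the same location rule, 6.57% lay within 100 bp of a summit of replicate 1, 6.56% of replicate 2 and 0.873% of both. Intronic candidates of rank above 3000, of which there were 8526, were matched in both lists in 9.99%, and 1961 of them in neither.

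Most matches lay deep in a replicate's own list. The median rank of the matching region was 4244 in replicate 1 and 4469 in replicate 2, out of 30000 each. A region among the 3000 highest of replicate 1 matched 237 of the 793 (29.9%), one among the 3000 highest of replicate 2 matched 247 (31.1%), and both did so at 24 (3.03%). At 333 regions (41.99%) neither replicate's 3000 highest held a match. Within the 1000 highest of both replicates there were 6 regions. Seen from the other side, 731 regions of replicate 1's own 3000 highest met the same location rule, and 22 of them (3.01%) had one of replicate 2's 3000 highest within 100 bp. For replicate 2's own 835 such regions the count was 24 (2.87%).

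**Figure D1:**
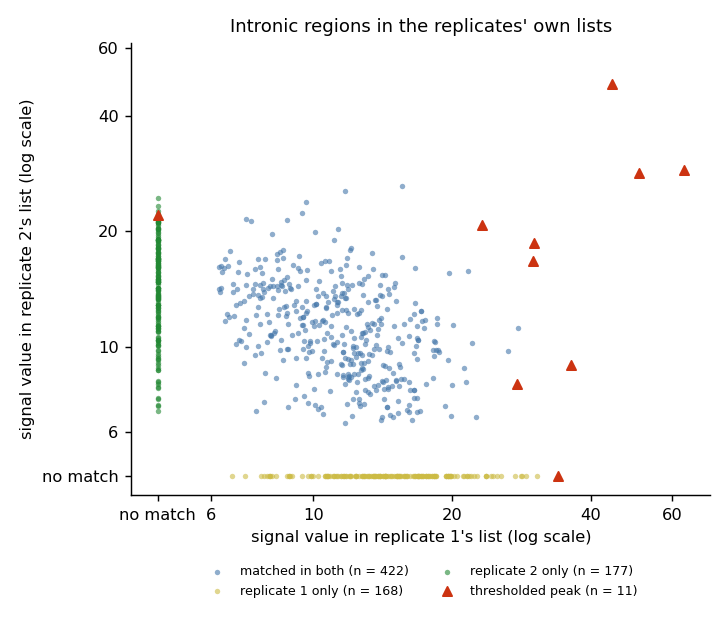
Each point is 1 intronic region, placed by its signal value in replicate 1's list (x axis, log scale) and in replicate 2's (y axis, log scale). Regions matched in only 1 list lie along the edges, and the 26 matched in neither are not drawn. The 11 thresholded peaks are triangles, of which 1, in nhr-19, had no match and is not drawn. Few points are high on both axes: 24 of the 793 regions have a match among the 3000 highest of each replicate.

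The signals in the replicates ran from 6.26 to 63.6 in replicate 1 (median 12.3) and from 6.34 to 48.4 in replicate 2 (median 12.1). Over the 422 regions matched in both, Pearson's r of the log2 signals was -0.18 and Spearman's rho -0.37. As the regions were chosen by a pooled signal to which both libraries contribute, this is a description of the selected set. The share matched in both was 60.7% in the regions of pooled rank 1 to 1000, 54.4% in the 283 of the next 1000 ranks and 47.2% in the 309 of the last 1000. The plot of signals in the replicates' own lists shows the regions matched in at least 1 list one by one.

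Against other locations in the 3000 highest, no difference in the share matched in both lists passed the test. It was 56.6% for the 495 autosomal regions 1 to 500 bp upstream of a gene (odds ratio 0.873, two-sided Fisher's exact test, adjusted over both comparisons, p = 0.501). It was 52.6% for the 386 autosomal regions outside genes and over 2000 bp from any 5′ end (odds ratio 1.03, same exact test, adjusted p = 0.852). When a match had to be among the 3000 highest of each replicate, intronic regions were lower, at 3.03% against 14.9% upstream (odds ratio 0.178, adjusted p = 2.29e-14 by the exact test) and 5.70% in distal regions (odds ratio 0.516, adjusted p = 0.036 by the exact test). This last share rests on signal in the replicates, and both libraries contribute to the pooled signal that chose the regions. The upstream and distal regions also had higher median pooled signals, 25.6 and 23.97, than the intronic ones, at 23.1. Location and signal thus cannot be told apart in that comparison. Without the 1000 highest regions the median signals were 22.4 for intronic, 22.5 for upstream and 22.6 for distal regions. The share matched in both lists was then 50.7% for intronic regions, above 44.4% upstream and 44.98% in distal regions, and neither difference passed the exact test (odds ratios 1.29 and 1.26, adjusted p = 0.151 for each). The share within the 3000 highest of each replicate was not tested in those ranks.

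**Figure D2:**
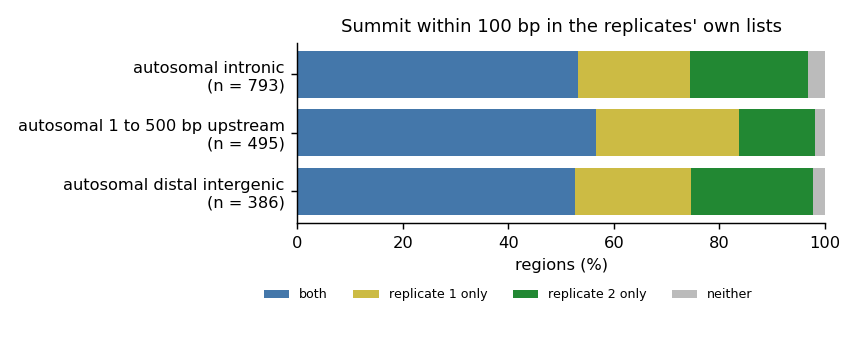
Bars give the percentage of regions with a summit within 100 bp in both replicates' lists, in one or in neither (x axis, percent of regions), for the 3 kinds of location among the 3000 highest autosomal regions. The part matched in both is 53.2% for intronic, 56.6% for upstream and 52.6% for distal regions.

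TAATCC was somewhat more frequent at the intronic summits than at weaker intronic candidates. Searched on both strands, it lay no more than 100 bp from 76 of the 793 summits, a share of 9.58% (interval 7.73 to 11.8). In intronic candidates of rank above 3000 it was in 6.37% (odds ratio 1.56, two-sided Fisher's exact test, p = 0.000985). Around every autosomal intronic base that meets the location rule the share was 6.597%. Windows 1000 bp to either side of the summits held it in 117 of 1541, or 7.59%, and this difference did not pass the test (odds ratio 1.29, p = 0.112 by the exact test). The median G+C content was 32.3% at the summits, 34.8% in the flanks and 31.3% in the lower-ranked candidates. Among regions upstream of genes the core was in 7.68% and among distal ones in 10.9%.

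The core was most frequent in the regions of highest signal. It was in 28 regions of rank 1 to 1000 (13.9%), in 23 of 283 in the next 1000 ranks (8.13%) and in 25 of 309 in the last 1000 (8.09%). Above a signal of 30 it was in 11 of 49 (22.4%, interval 13.03 to 35.9), and in the thresholded regions in 3 of 11, those of atic-1, F02E11.7 and sue-1. Along the sequence, the 100 bp just before and just after the summit held it in 5.42% and 4.67% of regions, and the other 18 bins out to 1000 bp in 2.52% to 4.29%. TAATTA, the core of other homeodomains, was in 11.2% of the summits' windows, 10.2% of the flanks (odds ratio 1.11, Fisher's exact test, p = 0.435) and 11.5% of the lower-ranked candidates (odds ratio 0.971, exact p = 0.861). The shorter TAAT, which both cores hold, was in 86.1% of the summits' windows. That was less than the 89.9% of lower-ranked candidates (odds ratio 0.696, exact p = 0.00123) and near the 84.9% of flanks (odds ratio 1.11, exact p = 0.459).

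**Figure D3:**
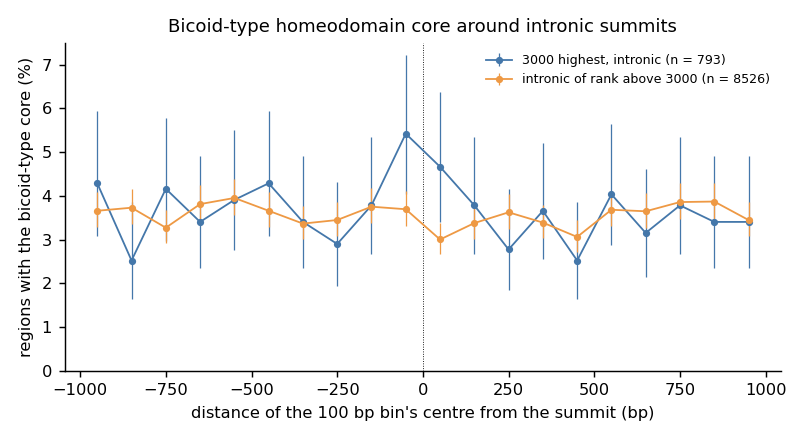
Points give the percentage of regions that hold the bicoid-type core in each 100 bp bin (y axis) by distance from the summit in bp (x axis), with 95% Wilson intervals, for the 793 intronic regions and the 8526 intronic candidates of rank above 3000. The bins beside the summit, at 5.42% and 4.67%, are the highest of the first set.

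TAATCC was also counted in each replicate's own list. In the intronic regions of replicate 1's own 3000 highest the core was in 80 of 731 (10.9%), against 6.55% of their flanks (odds ratio 1.75, Fisher's exact test, p = 0.000571). In those of replicate 2 it was in 50 of 835 (5.99%), against 7.76% of their flanks (odds ratio 0.757, exact p = 0.117). The odds ratio was thus above 1 in one library and below 1 in the other, and with 1 library on each side the difference between them has no replicate check. Within the 793 regions, it was in 9.48% of those matched in both lists, 11.3% of those matched in replicate 1 alone and 7.34% of those matched in replicate 2 alone.

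The motif-bearing regions printed above sit in genes of several kinds. The region in unc-5, the receptor for the guidance cue netrin, lay in its first intron of 11991 bp, with signals of 34.8 pooled, 18.7 in replicate 1 and 9.70 in replicate 2. That in unc-43, the gene of calcium/calmodulin-dependent kinase II, had 32.6 pooled, 9.64 in replicate 1 and 23.8 in replicate 2. That in unc-49, which encodes the GABA-A receptor of body muscle, had 30.2 pooled, 18.3 and 9.45. The match at unc-43 was higher in replicate 2, and those at unc-5 and unc-49 were higher in replicate 1. cal-4, of a calmodulin-related protein, had 37.6 pooled, 20.1 in replicate 1 and 11.4 in replicate 2. The forkhead gene fkh-7 had 29.5 pooled, 15.7 and 11.4, and swt-5, a sugar transporter gene, 27.4 pooled, 13.98 and 14.4. The same rule also took nlp-15 (35.02 pooled) and tent-5 (31.8 pooled), whose sequences are not printed.

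Most 6-mers that were more frequent at the intronic summits than in their flanks were poor in G and C. Each 6-mer was counted together with its reverse complement. By Fisher's exact test, at a Benjamini-Hochberg adjusted p under 0.05, 43 of them (2.07%) were more frequent at summits and 26 (1.25%) more frequent in flanks. Of the 43, 34 hold at most 1 G or C, led by TAAAAA, in 67.97% of summits and 53.3% of flanks (odds ratio 1.86, exact test, adjusted p = 2.20e-08). TAATCC ranked 490 in this scan (exact test, adjusted p = 0.477). Of the 48 6-mers that hold TAAT, 1 was more and 1 less frequent. In all, 69 were called from the pooled list, 3 from replicate 1's own list without replicate 2 and 99 from replicate 2's own without replicate 1. With the 938 flanks that are themselves intronic, a background added after the data were seen, Fisher's exact test called 0 of them, with 66 higher and 64 lower at an unadjusted p under 0.05.

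Against intronic candidates of rank above 3000, 4 of the 6-mers (0.192%) were more frequent and 0 (0%) less frequent by Fisher's exact test, with 146 and 37 at an unadjusted p under 0.05. CCTCTC was in 7.69% of the regions and 3.69% of the lower-ranked candidates (odds ratio 2.17, exact test, adjusted p = 0.00134). CTCTCA, which overlaps it, was in 10.6% against 6.51% (odds ratio 1.70, exact test, adjusted p = 0.0248). GAGAAA was in 35.2% against 28.04% (odds ratio 1.39, exact test, adjusted p = 0.0226) and CTAAAG in 9.21% against 5.196% (odds ratio 1.85, exact test, adjusted p = 0.0107). GAGAAA and CTAAAG were also among the 43 called against all flanks. TAATCC ranked 20 here and did not pass (exact test, adjusted p = 0.102).

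The 11 thresholded regions had a higher median G+C content than the 32.3% of the whole set, a difference that was not tested. GACGCAG, capitalised in the windows of W06H8.6 and Y111B2A.12, was in 4 of the 11 thresholded regions, the others being ndx-8 and zfp-1, and so in all 3 regions above a signal of 50. Above a signal of 30 it was in 5 of 49 (10.2%, interval 4.44 to 21.8), and below that in 11 of 744 (1.48%). Flanks held it in 1.75%, lower-ranked intronic candidates in 1.10% and the autosomal regions upstream of genes in 5.66%. The median G+C content was 44.3% in the 11 thresholded regions, 33.8% above a signal of 30 and 31.8% at a signal of 30 or less. As the 7-mer was picked from these windows, its counts include the windows that gave it, and no test was made. In the thresholded regions it did not fall together with TAATCC, but 4 and 3 of 11 are too few to read this as separation. Lower down, the region in nhl-3 (rank 813) held both. ATGCGC was in 2.27% of the intronic regions, against 12.1% of the upstream ones, and GACGCA in 2.90% against 13.7%.

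Copies elsewhere in the genome were few. A 50-mer with a second exact copy lay in the window of 16 intronic regions (2.02%), against 7.85% of the flanks and 4.48% of the lower-ranked candidates. The thresholded region in dhc-4 was 1 of the 16. A non-coding gene touched 39 of the windows (4.92%, and 4.97% of lower-ranked candidates), 28 of them with piRNA genes. Inside more than 1 protein-coding gene lay 11 regions, and 10 regions share bases with another one, which leaves 788 separate loci.

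The intronic regions sat in long introns, more of them far from gene starts than near. An intron of a coding transcript held 786 of them, and its median length was 1169 bp, with a range of 43 to 21230 bp. The lower-ranked candidates had a median intron of 934 bp, and the median over all autosomal introns was 65 bp. Introns over 1000 bp held 54.5% of the regions, 47.4% of the lower-ranked candidates and 46.02% of the intronic bases that meet the location rule. The longest intron of the transcript held 50.8% of the regions and 45.8% of the lower-ranked candidates. The median distance of the summit was 2995 bp from the gene's 5′ end, against 2516 bp, and 251.5 bp from the nearest splice site, against 222. Within 1000 bp of the gene's 5′ end lay 24.7% of both sets. Another transcript start lay within 500 bp downstream of 57 summits (7.19%, and 5.96% in lower-ranked candidates), so these are upstream of an alternative start.

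First introns held 229 of the 786 regions, or 29.1% (interval 26.1 to 32.4), against 26.8% of lower-ranked candidates, a difference that did not pass the test (odds ratio 1.12, two-sided Fisher's exact test, p = 0.166). They make up 22.9% of the intronic bases. The share was 36.2% in rank 1 to 1000, 27.2% in the next 1000 ranks and 26.3% in the last 1000. For rank 1 to 1000, the odds ratio against intronic candidates of rank above 1000 was 1.55 (Fisher's exact test, p = 0.00458). With 1 region counted per intron the shares were 29.3% and 24.04% (odds ratio 1.31, exact p = 0.00183). The share of the intronic regions hardly moved from 29.1%, whereas that of the far larger lower-ranked set fell from 26.8%. This odds ratio thus rose mainly through the lower-ranked set. Second introns held 15.9% of the regions, against 16.6%, and introns beyond the tenth 9.16%, against 7.41%. Of the regions with TAATCC, 23 of 76 (30.3%) were in first introns.

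**Figure D4:**
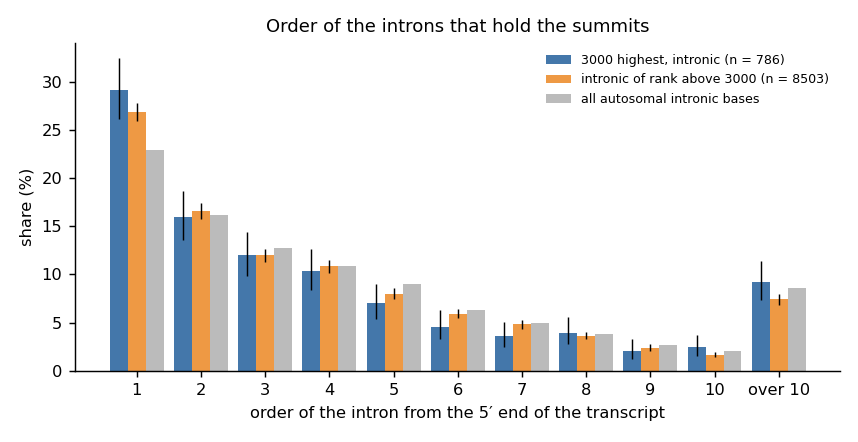
Bars give the share of regions (y axis, percent) by the order of the intron that holds the summit (x axis), for 786 intronic regions of the 3000 highest, 8503 of rank above 3000, and all autosomal intronic bases. Lines are 95% Wilson intervals. The first intron holds 29.1%, 26.8% and 22.9%, and the intervals of both sets of regions overlap there.

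The 793 regions had 686 host genes, which are 4.12% of the 16657 autosomal protein-coding genes with an intron. Hosts were long genes, with a median of 7545 bp against 1964 bp for all autosomal protein-coding genes, and their intronic bases followed the same pattern (median 4978 against 685). The share of genes that host a region rose with intronic length, from 0.816% below 1000 bp to 61.1% of the 72 genes over 20000 bp. Per length the regions were closer in number, with 1 per 48.3 kb of intron in the shortest genes, 1 per 24.6 kb in the longest and 1 per 33.8 kb over all.

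Several regions in 1 gene were found in 84 hosts: 65 had 2, 16 had 3, 2 had 4 and 1 had 5. kin-1, the catalytic subunit of protein kinase A, had 5 regions along its 38461 bp, of which 4 lay in its intron 4 of 21230 bp, with signals of 21.5 to 28.3 and 3 matched in both lists. vhp-1, a MAP kinase phosphatase gene, had 4 with signals of 21.7 to 37.2, of which 1 was matched in both. rin-1, whose product is related to Ras and Rab interactors, had 4 from 21.6 to 27.4, all matched in both. par-1, a kinase gene of cell polarity, had 3 from 27.3 to 35.2, each in an intron of a different transcript, and 2 matched in both. unc-5 had 3 (21.3 to 34.8), all matched in both. The other hosts of 3 were C08G5.7, tent-5, Y57G11C.22, jun-1, pqn-41, twk-43, unc-73, dhhc-2, rhgf-3, jac-1, scpl-1, W05B5.1, golg-4 and daf-16.

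**Figure D5:**
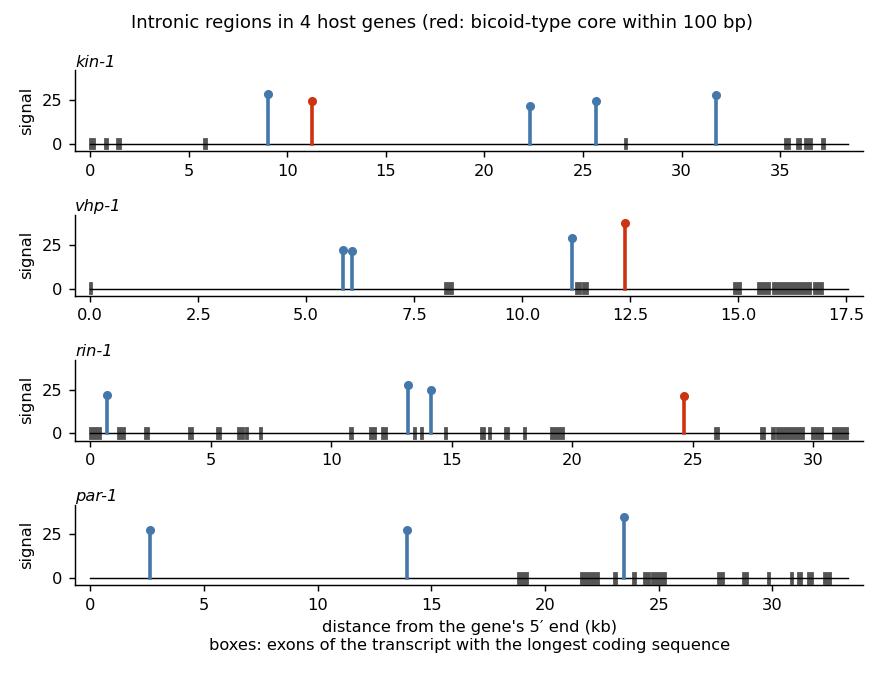
Each panel is 1 host gene drawn to scale from its 5′ end (x axis, kb), with exons as boxes and each intronic region as a stem whose height is its pooled signal (y axis). kin-1 has 5 regions, vhp-1 and rin-1 have 4 each and par-1 has 3, and red stems hold the bicoid-type core within 100 bp.

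Of the hosts of the 20 highest regions, those not yet named were dyf-19 (38.2), a gene of the cilium base, unc-76 (37.1), which acts in axon outgrowth and bundling, nhr-47 (35.995), C25H3.11 (35.9), C34B4.2 (35.3) and snt-4 (35.2), of the synaptotagmin family. unc-76 had a signal of 27.7 in replicate 1 and 11.2 in replicate 2. nhr-47 had 15.6 in replicate 1 and 26.2 in replicate 2. dyf-19 and C34B4.2 were matched in replicate 2 alone, and C25H3.11 and snt-4 in replicate 1 alone.

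The lists with the highest shares of hosts were axon guidance, synapses and transcription, and their genes have more intronic bases than the median gene. Of 35 autosomal axon guidance and adhesion genes with an intron, 13 were hosts (37.1%, against 4.12% of all such genes), with 21 regions or 1 per 17.8 kb of intron. They included, besides unc-76 and unc-5, the plexin gene plx-1 (29.5), the Ror receptor gene cam-1 (26.1), unc-53 (25.96) and the exchange factor gene unc-73 (25.6). Of 21 synaptic release and assembly genes 7 were hosts (33.3%), with 1 region per 20.4 kb. Besides unc-43 these were the JIP3 homologue unc-16 (27.1), the syntaxin gene unc-64 (26.6), the kinesin gene unc-104 (24.04), unc-31 of dense-core vesicle release (23.6), the synaptotagmin gene snt-1 (23.4) and the active zone gene cla-1. Of 38 transcription and chromatin regulators 11 were hosts (28.9%), with 18 regions or 1 per 13.5 kb, among them jun-1 (29.96), mef-2 (28.9), tra-1 (26.7), egl-44 (25.3), sem-4 (24.4) and ztf-11 (23.3). The median intronic length was 6827 bp in the first of these lists, 5156 bp in the second and 3910 bp in the third, against 685 bp over all genes with an intron. Among all genes, 7.38% of those with 2000 to 5000 intronic bases were hosts. The share was 21.5% at 5000 to 10000 bases and 36.8% at 10000 to 20000. The 4.12% is thus a low mark for genes of this length. These lists were chosen with earlier results of these data known, and no set test was made.

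The other lists had lower shares of hosts or none. Of 24 ion channel genes 3 were hosts (12.5%, 1 region per 45.1 kb, median intronic length 6182.5 bp). They were the potassium channel genes egl-23 (27.8) and shl-1 (22.2), and unc-80 (24.2) of the sodium leak channel. This list is a selection and leaves out channel genes that were hosts, among them twk-43 (3 regions), twk-2, kvs-5 and shw-1. Its share thus holds for the listed genes only. Of 13 acetylcholine and GABA receptor genes 3 were hosts (23.1%, 1 per 24.1 kb, median intronic length 5148 bp), unc-49, the nicotinic subunit gene unc-63 (25.03) and the muscarinic receptor gene gar-2 (21.4). Nuclear hormone receptors had 11 hosts of 246 (4.47%, 1 per 28.6 kb). Neuropeptide genes had 3 of 105 (2.86%, 1 per 24.6 kb), namely nlp-15, nlp-21 (28.6) and flp-15 (26.8). Of 74 ribosomal protein genes 1 was a host (1.35%), rpl-14 (26.9), and this 1 region gives 1 per 11.1 kb. Of 45 ceh homeobox genes 1 was a host (2.22%, 1 per 85.8 kb), ceh-92 (21.0). Homeobox genes with other names are outside this list, and of them vab-7 (22.3), zag-1 (22.1) and cog-1 (21.2) were hosts. Body wall muscle (22 genes), intestine (12), hypodermis (15) and cuticle collagens (123) had 0 hosts. The tissue lists are selections too. Hosts that act in muscle attachment or thin filaments, such as pxl-1 (25.96) and unc-94 (23.1), are not in the muscle list. The median intronic length was 2603 bp in the muscle list, 445.5 bp in the intestine list, 486 bp in the hypodermis list and 130 bp in the collagens.

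Of the 5 GABA identity genes, 0 were hosts, against 4.12% of all autosomal genes with an intron. Their intronic lengths are short beside the 1 region per 33.8 kb found over all genes, at 5517 bp in unc-25, 929 bp in unc-47, 679 bp in unc-46, 4049 bp in unc-30 and 1084 bp in snf-11. unc-25, which encodes the GABA-synthesising glutamate decarboxylase, had 2 intronic candidates in the pooled list, the higher at rank 20090 with a signal of 12.8 (summit at 12943478 on chromosome III). unc-47, unc-46 and snf-11, which act in GABA transport, and unc-30 itself had no intronic candidate among the 30000. The D-type motor neuron list had 9 genes on autosomes with an intron, of which 1 (11.1%) was a host. That was unc-49, the receptor gene of body muscle, which the receptor list also counts. unc-119, the gene mutated in this strain, had 2 of the regions in its first intron, with pooled signals of 33.5 and 23.4. Replicate 1 had 28.4 and 17.8 there, and replicate 2 had no summit within 100 bp of either.

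The regions were spread over the 5 autosomes much as lower-ranked intronic candidates were. Chromosome I held 187 (23.6%, and 22.4% of lower-ranked candidates), II 111 (13.997% and 15.3%), III 170 (21.4% and 20.6%), IV 187 (23.6% and 22.4%) and V 138 (17.4% and 19.4%). The shares of the intronic bases that meet the location rule were 21.8%, 17.03%, 19.2%, 20.4% and 21.7% in the same order.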

How the data were processed

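The values come from the peak lists that the authors deposited for the ce11 build: 1 per replicate, 1 pooled and 1 thresholded by IDR. Per the labels, chromatin was sonicated. Which aligner, peak caller and control were used, and which IDR threshold, is not given in the sources used here. The deposited lists give each region a signal value, a −log10 q-value and a summit offset, all used as the authors wrote them. Library depth is unknown.

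Locations came from Ensembl release 115 (WBcel235). The transcript with the longest coding sequence among those with the summit in an intron set the intron order. Motifs were searched within 100 bp of summits, with flanks 1000 bp to each side that touch no window of the 3000 highest regions. Tests were two-sided Fisher's exact tests over regions (scipy 1.17.1), adjusted by Benjamini-Hochberg over all 6-mers or over both location comparisons, and were tested on simulated data. Intervals are 95% Wilson intervals. Coordinates count from 1.

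Named genes were hosts of the 20 highest regions, of thresholded peaks, of 3 or more regions, of up to 10 regions with TAATCC and both replicates, up to 6 per gene list, and the GABA genes and unc-119. cla-1, snf-11, irld-30, dmsr-5 and soem-1 were added where a count or limit needed them. The regions and gene lists were chosen with earlier results of these data known. Alternatives covered the rank limit, location rule, windows, backgrounds, matching distance and each replicate alone.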

Additional observations from a re-analysis of the deposited data

How the results depend on the processing

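Of 50 values recomputed under alternatives, 26 kept their direction and side of the threshold, 8 passed it, 13 counts or shares moved and 3 changed direction, of which 1 also passed it. With the 1000 highest regions as the limit 20.1% of the list was intronic (26.4% with 3000), 60.7% of the regions were matched in both replicates, and the odds ratios of TAATCC against flanks (1.73) and of first introns (1.55) passed the exact test. With the 6000 highest 28.9% was intronic, 40.4% of the regions were matched in both, and TAATCC passed (odds ratio 1.33). The intronic share of the 3000 highest was 22.6% with an upstream span of 2000 bp and 24.5% with the 5′ ends of every protein-coding transcript. From 1 replicate's own list at a time it ran from 24.4% to 27.8%, the odds ratio of TAATCC against flanks ran from 0.757 to 1.75, the lower without replicate 1 and in the other direction, that of first introns from 1.22 to 1.27, both past the threshold, and the count of 6-mers called from 3 to 99 (69 in the pooled list). That count was 0 against intronic flanks and 4 against lower-ranked candidates. With 1 region per intron the first intron odds ratio was 1.31 and passed, as the lower-ranked share fell from 26.8% to 24.04%. The share matched in both was 33.3% within 50 bp, 71.5% within 200 bp and 3.03% with the 3000 highest of each replicate. Against upstream regions the odds ratio of this share turned to 1.29 without the 1000 highest regions, where neither direction passed the exact test, and fell to 0.178 with the 3000 highest of each replicate. Against distal regions it turned to 0.516 there. The cause of these shifts was not tested.

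No paired analysis was possible because there is 1 group. Depth is unknown, so an unmatched region cannot be told from one too shallow to be listed.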
